A study of Bos taurus with 43 samples.

Results

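The 100 stable genes described here were the abundant genes of the bovine uterine lumen whose RNA level differed least between cows. Counts were scaled to the library total (CPM), the 2220 genes with a mean of at least 100 CPM were kept of 27570 in the tables, and the 100 of smallest standard deviation (SD) of log2(CPM + 1) over 43 cows were taken. The genes were thus chosen by their level and spread over all 43 cows, and both are given below as descriptions without a test. Luminal cells of the endometrium were brushed on day 4 from multiparous Angus x Brahman cows, and 1 poly-A RNA library was sequenced for each cow. Day 0 was the last GnRH dose of a synchronization in which every cow also carried a progesterone device and received a prostaglandin analogue. All cows received 1 in vitro-produced embryo on day 7, and pregnancy was scored around day 30. The groups were 25 pregnant and 18 nonpregnant cows, spread over 22 cows of a second round of synchronization (block 2, with 14 pregnant and 8 nonpregnant) and 21 cows of a first round (block 1, with 11 pregnant and 10 nonpregnant). Blood progesterone (P4) of the same day ranged from 0.27 to 1.88 with a median of 0.72, in a unit that the labels do not give.

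The luminal epithelium lines the uterine cavity and faces an embryo placed there. In the days after ovulation the corpus luteum releases progesterone, which turns the endometrium from an estrogen-driven to a secretory state, so the levels of many of its transcripts depend on the day and on the hormone. Transcripts with a steady level in such a tissue are used as internal references, against which changing transcripts are measured. The tables name genes by Ensembl identifier only, and no identifier was matched to a symbol, so the function, position and sequence of the 100 genes are not given, and the luminal origin of the samples was not checked against markers. A brush collects a mixture of cells, and in such samples fewer cells of a type and less RNA per cell cannot be told apart.

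Library totals ran from 11159501 to 23572549 counts (median 15544498), and 16705 to 18842 genes were detected in a library. The 10 most abundant genes of a library took 3.70% to 11.3% of its counts, and over 8% in 7 libraries. Each stable gene had at least 839 counts in every library.

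The steadiest transcript was ENSBTAG00000015034. Its level in the 25 pregnant cows was 136 CPM at the lowest, 152 CPM at the median and 171 CPM at the highest, against 131, 155 and 170.1 CPM in the 18 nonpregnant cows. The highest of all 43 values was thus 1.30 times the lowest, and its SD was 0.10 on the log2 scale. ENSBTAG00000013895, second in the order, had 143, 178 and 201 CPM as lowest, median and highest value in pregnant cows, against 153, 177 and 213 CPM in nonpregnant cows. ENSBTAG00000003530, the next one, had 201, 239 and 263 CPM in pregnant cows, against 196, 243 and 272 CPM in nonpregnant cows. The ranges of the outcome groups overlapped for these 3 genes. ENSBTAG00000021062 and ENSBTAG00000020026 followed, with means of 189 ± 14.8 CPM and 143 ± 12.5 CPM (SD, n = 43). For both the highest cow stood at 1.51 and 1.57 times the lowest.

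Over the 100 stable genes the SD had a median of 0.17 and ran from 0.10 to 0.18, whereas the 2220 abundant genes had a median of 0.32 and reached 2.40. The ratio of the highest to the lowest cow had a median of 1.65 among the stable genes and 2.76 among the abundant genes. It was under 2 for 99 of the 100 stable genes and for 355 of the 2220 abundant genes. The exception was ENSBTAG00000020496, with a ratio of 2.06. No step separated the stable genes from the next ones. The last genes inside the limit, ENSBTAG00000017547 and ENSBTAG00000045748, both had an SD of 0.179, and so did the first ones outside it, ENSBTAG00000009307 and ENSBTAG00000011811.

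The stable genes were of moderate level among the abundant ones. Their mean CPM ran from 101 to 607 with a median of 156, beside a median of 166 and a maximum of 9431 among all abundant genes. These CPM values are not per transcript length, so they do not rank the genes by number of transcripts. ENSBTAG00000020757 had the highest mean CPM of the 100, with 485, 612 and 726 CPM as lowest, median and highest value in pregnant cows, against 457, 598 and 693 CPM in nonpregnant cows. Of the 97 abundant genes with a mean of 1000 CPM or more, none was among the 100, and their smallest SD was 0.19. The share of stable genes was 4.98% of 944 genes between 100 and 150 CPM, 5.92% of 439 between 150 and 200, 4.39% of 501 between 200 and 400, and 2.09% of 239 between 400 and 1000.

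Counting error took a small part of the spread at this depth. The SD that counting alone would give on the log2 scale had a median of 0.029 over the stable genes, which was a median of 3.47% of their variance. The share was highest in ENSBTAG00000015034, whose SD was 0.10 both with and without the counting part. Such counting values cover counting error only, as the libraries had no molecular identifiers that the sources name. The biological coefficient of variation fitted by edgeR with outcome and block in the model had a median of 0.145 over the stable genes, 0.233 over the abundant genes and 0.309 over the 15206 genes tested.

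**Figure D1:**
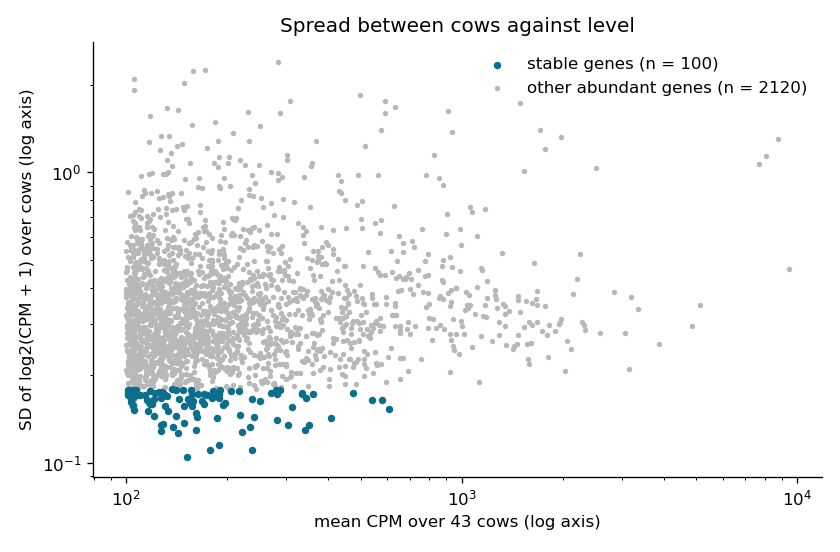
SD of log2(CPM + 1) over 43 cows (vertical, log axis) against mean CPM (horizontal, log axis) for the 100 stable genes and the other abundant genes, 1 point per gene. The stable genes lie between SDs of 0.10 and 0.18 and between 101 and 607 mean CPM, with none of them above 1000 CPM.

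The stable genes together held 1.73% to 2.06% of a library. In pregnant cows this share was 1.73% at the lowest, 1.90% at the median and 2.00% at the highest, against 1.73%, 1.90% and 2.06% in nonpregnant cows. The medians of the outcome groups were thus the same to 3 digits. The cows that stood apart were single ones. Nonpregnant replicate 13 had the highest CPM of all cows in 17 of the 100 genes, and its median deviation from the genes' own means was 0.15 on the log2 scale. Nonpregnant replicate 3 and pregnant replicate 16 each had the lowest CPM in 15 genes, with median deviations of -0.13 in both. Both of these libraries were among the 7 in which 10 genes took over 8% of the counts.

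In all 7 libraries in which the 10 most abundant genes took over 8% of the counts, the stable genes lay below their own means, with median deviations from -0.13 to -0.02. In the other 36 libraries the median deviation ran from -0.10 to 0.15 and was below 0 in 12. The median CPM deviation of the 2220 abundant genes was also below 0 in all 7 libraries and in 10 of the other 36. With TMM-scaled library sizes, which set each library by the bulk of its genes and not by its total, the stable genes lay below their means in 4 of the 7 libraries and in 21 of the other 36. When the rule was applied without the 7 libraries, 76 of the 100 genes were chosen again.

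**Figure D2:**
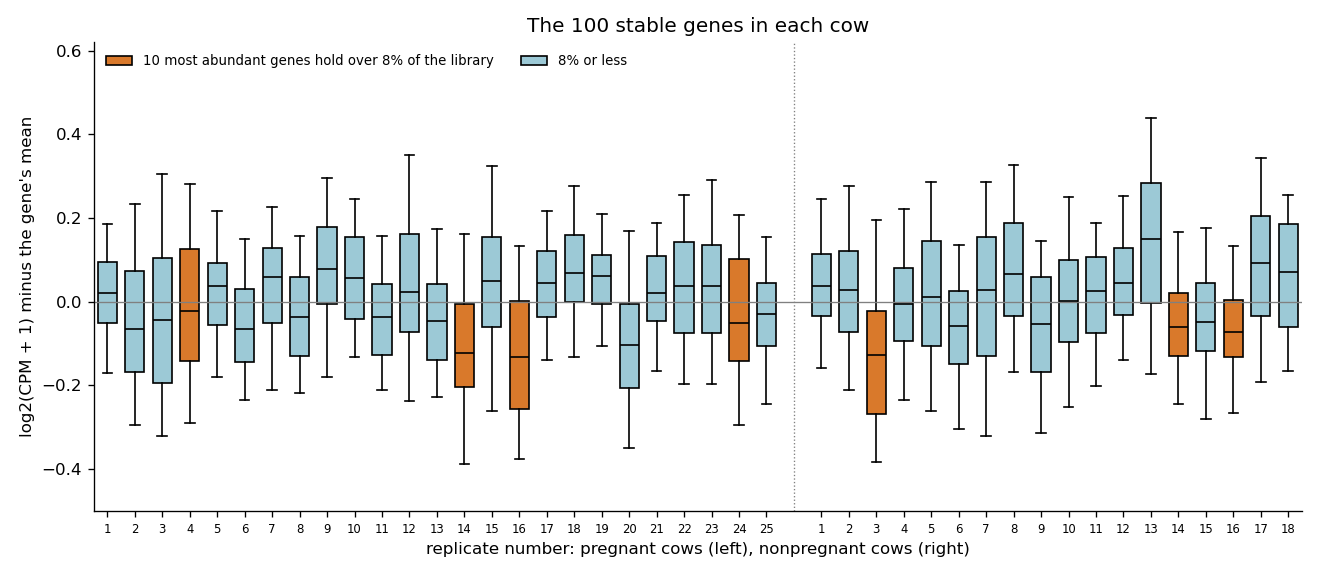
Deviation of the 100 stable genes from their own means in log2(CPM + 1) (vertical) in each library, pregnant cows left and nonpregnant cows right, with boxes for the quartiles, lines for the medians and whiskers from the 5th to the 95th percentile. Orange marks the 7 libraries in which 10 genes held over 8% of the counts; their medians lie between -0.13 and -0.02, and the highest median, 0.15, is that of nonpregnant replicate 13.

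Which genes counted as stable depended on how libraries were scaled. With TMM scaling 49 of the 100 genes were chosen again, and with DESeq2's size factors 48. The TMM and DESeq2 lists shared 99 genes with each other. Under TMM the SD was larger than under total counts for 71 of the 100 genes, and its median was 0.18. Genes chosen for a small SD under total counts tend to have a larger one under another scaling. The median SD of the abundant genes was 0.32 under total counts and 0.33 under TMM. The genes ranked 1 to 50 by total counts gave 32 genes of the TMM list and those ranked 51 to 100 gave 17. ENSBTAG00000019685, eighth by total counts with an SD of 0.13, was the steadiest gene under TMM, with an SD of 0.10. ENSBTAG00000026415, at 0.18 under total counts, had 0.25 under TMM and stood at rank 505 there. ENSBTAG00000015034, first by total counts, had a TMM-scaled SD of 0.16 and rank 42.

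The 100 genes shared more of their variation under TMM than under total counts. With total counts their first principal component held 20.4% of their variance, and 89 genes loaded on it with one sign and 11 with the other. Under TMM it held 41.5%, and all 100 genes loaded with the same sign. A change of scaling shifts all genes of a library by about the same log2 amount. Since the 100 genes were chosen to be steady under total counts, a larger shared part under another scaling follows in part from the choice. For the 2220 abundant genes the first component held 33.9% under total counts and 34.8% under TMM. The TMM-scaled deviation was highest in nonpregnant replicate 13, at a median of 0.28, and in pregnant replicate 3, at 0.25. Under total counts these libraries stood at 0.15 and -0.04. These libraries had 17685 and 16705 detected genes, beside a median of 18272 over all cows. TMM factors ran from 0.815, in pregnant replicate 3, to 1.14. The part of detected genes in these values was not tested.

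**Figure D3:**
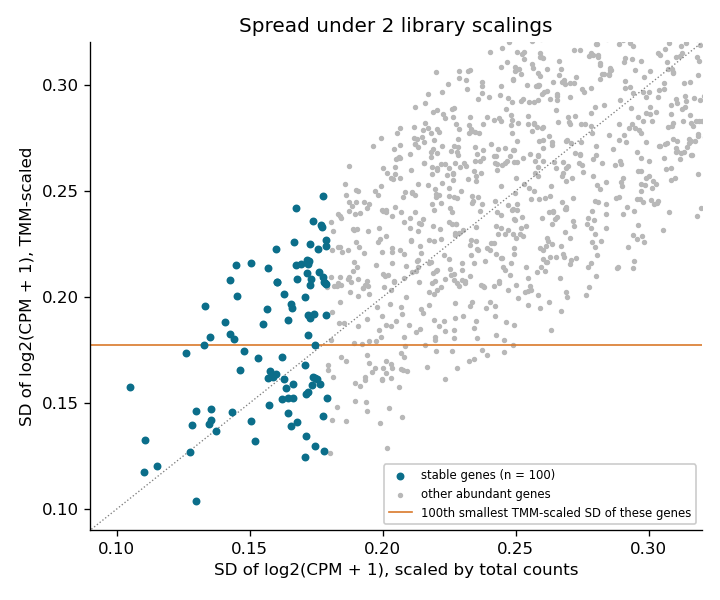
SD of log2(CPM + 1) over 43 cows with TMM-scaled library sizes (vertical) against the SD with total counts (horizontal), 1 point per abundant gene, with the stable genes in blue and the line of equal values dotted; 1285 of the 2220 genes lie beyond the axes. The stable genes reach from 0.10 to 0.25 under TMM, on both sides of the orange line of the 100th smallest TMM-scaled SD.

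Stability carried over to cows that had not been used for the choice. When the rule was applied to the 22 cows of block 2 alone, 37 of its 100 genes were also among the 100 of smallest SD in the 21 cows of block 1, where 100 genes made up 4.54% of the abundant genes. In block 1 these genes had a median SD of 0.19, beside 0.33 for all abundant genes of that block. The SD they had in block 2, where they were chosen, was lower, with a median of 0.15. Chosen in block 1 and read in block 2, the genes had a median SD of 0.18, beside 0.30 for the abundant genes of block 2. Of the genes chosen in block 2, 54 were among the 10% of smallest SD in block 1, and of those chosen in block 1, 60 were among that part in block 2.

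The outcome groups gave a like picture. The 100 genes chosen in pregnant cows had a median SD of 0.18 in nonpregnant cows, beside 0.33 for the abundant genes, and those chosen in nonpregnant cows had 0.18 in pregnant cows, beside 0.31. The lists of pregnant and nonpregnant cows shared 46 genes. The steadiest genes were the ones that recurred: the first 28 of the 100 by rank over all cows were in the lists of block 2, block 1, pregnant and nonpregnant cows alike. Ranks 1 to 50 gave 34 genes of both block lists, and ranks 51 to 100 gave 2. Since all 43 cows set the ranks, that order is not separate from the 4 lists.

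A total of 21 genes were chosen under each of 8 ways of applying the rule, which were total counts, TMM scaling, DESeq2 scaling, either block alone, either outcome alone and the cows without the 7 libraries over 8%. ENSBTAG00000013895 ranked 2 under total counts, TMM and DESeq2 scaling alike. ENSBTAG00000021062 ranked 4, 3 and 4 in the same order. Of the 10 genes of smallest SD, 9 were among the 21. The one that was not, ENSBTAG00000004695, ranked 101 under TMM.

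**Figure D4:**
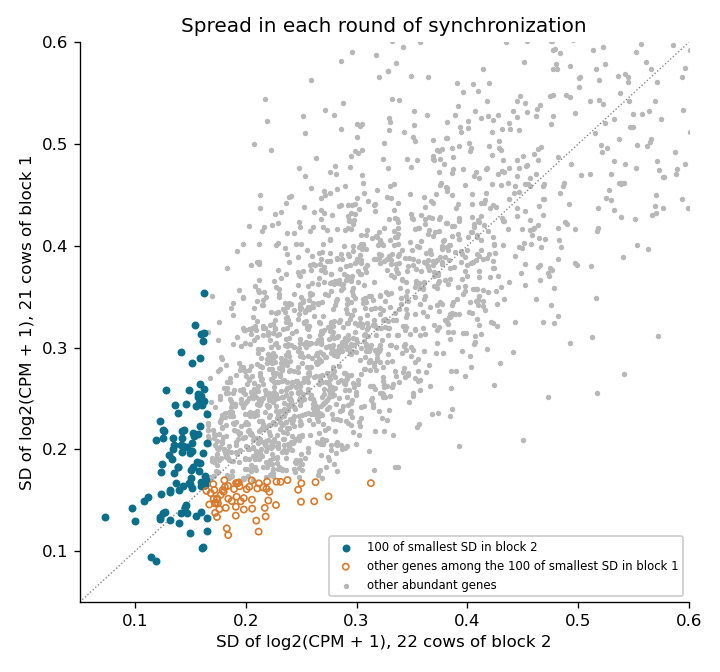
SD of log2(CPM + 1) over the 21 cows of block 1 (vertical) against that over the 22 cows of block 2 (horizontal), 1 point per gene, with genes chosen in block 2 filled, those chosen in block 1 alone as open circles and the line of equal values dotted; 262 of 2222 genes lie beyond the axes. The 100 genes chosen in block 2 have a median SD of 0.19 in block 1, and those chosen in block 1 a median of 0.18 in block 2.

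Ratios between stable genes do not depend on the library scaling, but they do depend on the choice of genes. Both genes of a pair were chosen for a small SD, so a small SD of their ratio follows in part from the rule. Over the 4950 pairs of the 100 genes, the SD of the log2 ratio of counts had a median of 0.21 and ran from 0.10 to 0.31, beside a median of 0.48 over all pairs of abundant genes. The steadiest pair was ENSBTAG00000003530 over ENSBTAG00000009906, with a ratio of 1.74 in the lowest cow, 1.99 at the median and 2.31 in the highest. Taken over the other 99 genes, ENSBTAG00000003530 also had the smallest mean SD of its ratios, 0.17, followed by ENSBTAG00000013895 and ENSBTAG00000019685 with 0.17 and 0.18. The smallest SD of a ratio among the stable genes, 0.10, was above the 0.071 found among all abundant genes, where 15 pairs were under 0.1. The steadiest ratio among abundant genes was therefore not one between stable genes.

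The series asks how the day 4 transcriptome relates to pregnancy. None of the 100 stable genes differed between pregnant and nonpregnant cows (edgeR's quasi-likelihood F-test, block as a covariate, adjusted over 15206 genes at a threshold of 0.05), where 0% of all genes tested were called. At an unadjusted p under 0.05 there were 0 of the 100, beside 2.99% of all genes, and DESeq2 and limma voom also called none of the 100 and had 0 at that level. The rule limits how large a change can be in these cows, so the counts and sizes are descriptions. Log2 fold changes of the 100 genes ran from -0.08 to 0.10 with a median of 0.02, beside a median of 0.01 over all genes. The 95% interval had a median half-width of 0.12 over the stable genes and 0.28 over all genes.

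Of the genes of smallest p for outcome, 1 in each direction is given. ENSBTAG00000003423 had 113, 143 and 168 CPM as lowest, median and highest value in pregnant cows, against 111, 133 and 184 CPM in nonpregnant cows. Its fitted log2 change was 0.08 ± 0.05 (SE; adjusted p = 1.00 by edgeR). ENSBTAG00000000411 had 87.7, 112 and 141 CPM in pregnant cows, against 90.9, 120.3 and 151 CPM in nonpregnant cows, and its fitted log2 change was -0.08 ± 0.05 (SE; adjusted p = 1.00 by edgeR). The CPM ranges of the outcome groups overlapped for all 100 genes. This overlap was not counted over all genes, so it does not set the stable genes apart. The direction depended on the scaling. The mean CPM was higher in pregnant cows for 47 genes, whereas the edgeR change with TMM factors was positive for 69. No stable gene differed between blocks in its outcome effect (edgeR interaction test, 0 of 100 called and 0 at an unadjusted p under 0.05, beside 0% and 3.32% of all genes). DESeq2 and limma voom called none either, with 1 each at that level.

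P4 was related to expression with block in the model. The rule limits the slopes in these cows as well, so the counts and sizes for the 100 genes are descriptions. None of the 100 genes passed (0.513% of all genes were called), and 14 had an unadjusted p under 0.05, beside 16.4% of all genes and 22.8% of the abundant genes. Of those 14, 13 had a positive slope and 1 a negative one, with sizes from 0.07 to 0.12 on the log2 scale per doubling of P4. The count at that level was 8 without nonpregnant replicate 13, the library highest in 17 of the genes, and 24 without pregnant replicate 12. Positive slopes were found for 71 of the 100 genes, beside 1389 of the 2220 abundant genes and 7010 of the 15206 tested. The median slope of the 100 genes was 0.034, beside 0.036 over the abundant genes and -0.012 over all genes tested. Without nonpregnant replicate 13 the median slope of the 100 genes was 0.02. Scaling the libraries by the stable genes themselves gave 0.0035. That scaling centers these genes in each library, so a median near 0 was fixed in advance. DESeq2 and limma voom called 0 of the 100, with 11 and 10 at an unadjusted p under 0.05. ENSBTAG00000016363 had 130.0, 155 and 186 CPM as lowest, median and highest value in the 14 cows of highest P4, against 110.3, 143 and 163 CPM in the 14 of lowest P4. Its slope was 0.12 ± 0.04 per doubling (SE; edgeR adjusted p = 0.109). ENSBTAG00000010193, one of the 21 genes chosen under all 8 ways, had 187, 225 and 262 CPM in the same high-P4 cows, against 177, 207 and 235 CPM in the low-P4 cows, with a slope of 0.11 ± 0.03 (SE; edgeR adjusted p = 0.109). The groups of cows overlapped for both genes.

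ENSBTAG00000004282 was the gene with the negative slope. It had 80.9, 93.3 and 108 CPM in the 14 cows of highest P4, against 91.7, 113 and 127 CPM in the 14 of lowest P4, and a slope of -0.08 ± 0.03 (SE; edgeR adjusted p = 0.174). Over 8 alternative settings the adjusted p of ENSBTAG00000016363 ran from 0.0744 to 0.277. Without pregnant replicate 13 the edgeR test called 3 of the 100 genes, all with a positive slope, and without pregnant replicate 12 it called ENSBTAG00000016363 alone (slope 0.14, edgeR adjusted p = 0.0475). Slopes did not differ between pregnant and nonpregnant cows past the threshold for any of the 100 genes (edgeR interaction test, 0 called and 0 at an unadjusted p under 0.05, beside 0% and 5.75% of all genes). DESeq2 and limma voom called none, with 0 and 1 at that level.

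Between the rounds of synchronization none of the 100 genes passed with edgeR (0.414% of all genes were called), while limma voom called 7 (5.48% of all genes) and DESeq2 called 1 (1.51%). Block changes of the 100 genes are limited by the rule too, so these counts and sizes are descriptions. At an unadjusted p under 0.05 in edgeR there were 21 of the 100, beside 14.2% of all genes and 21.8% of the abundant genes. Of the 21, 20 were lower and 1 was higher in block 2. Of all 100 genes 81 were lower in block 2 and 19 higher by edgeR, with TMM factors and outcome in the model. Lower in block 2 were also 1440 of the 2220 abundant genes and 7923 of the 15206 tested. By mean CPM, with neither TMM factors nor outcome, 38 of the 100 genes were higher in block 2. Log2 fold changes of block 2 over block 1 had a median of -0.06 over the stable genes, -0.06 over the abundant genes and -0.01 over all genes tested. When libraries were scaled by the stable genes themselves the first and last of these medians became -0.01 and 0.04. The first was set near 0 in advance, as that scaling centers the stable genes in each library.

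ENSBTAG00000015767 had the smallest p between blocks. Its level was 245 CPM at the lowest, 321 CPM at the median and 396 CPM at the highest in block 2, against 310.1, 352 and 457 CPM in block 1. The log2 fold change was -0.22 ± 0.06 (SE; 95% interval -0.34 to -0.09; edgeR adjusted p = 0.0816). It passed with DESeq2 (adjusted p = 0.0264) and limma voom (adjusted p = 0.0401) and had an adjusted p of up to 0.195 over the other settings. It also passed in edgeR without nonpregnant replicate 7, 8 or 12 (edgeR adjusted p = 0.0454, 0.0499 and 0.0478). This gene was in the lists of both blocks, so its spread was low within each round.

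Limma voom also called ENSBTAG00000014843, with a larger change (-0.20) than it gave ENSBTAG00000015767 (-0.18), while in edgeR the order was the other way. ENSBTAG00000014843 had 147, 164 and 201 CPM in block 2, against 138, 189 and 214 CPM in block 1, and its fitted log2 change was -0.15 ± 0.05 (SE; adjusted p = 0.173 by edgeR; limma voom adjusted p = 0.00551). ENSBTAG00000000411 was the only gene called by limma voom as higher in block 2. It had 103, 120.3 and 141 CPM in block 2, against 87.7, 108 and 151 CPM in block 1, and its fitted log2 change was 0.10 ± 0.05 (SE; adjusted p = 0.322 by edgeR; limma voom adjusted p = 0.0454). Block ranges overlapped for all 100 genes, and this overlap was likewise not counted over all genes.

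**Figure D5:**
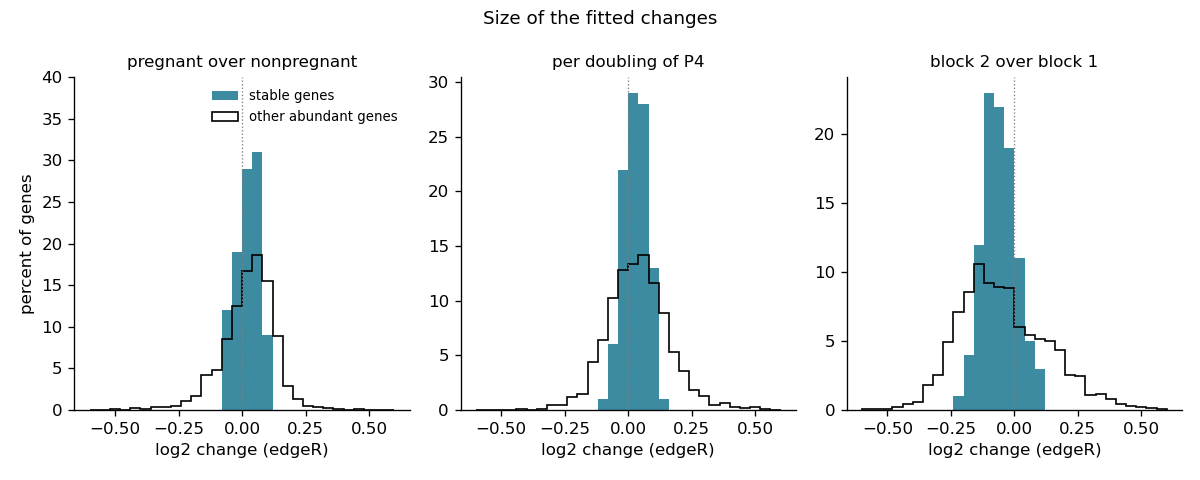
Share of genes (vertical, percent) by log2 change from edgeR (horizontal) for the 100 stable genes (filled) and the other abundant genes (outline), for outcome, doubling of P4 and block, each panel with its own vertical axis. Changes of the stable genes lie between -0.08 and 0.10 for outcome, -0.08 and 0.12 for P4 and -0.22 and 0.10 for block.

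The labels carried like median shares of the spread in stable and abundant genes. Outcome held a median of 0.82% of the variance of log2(CPM + 1) over the stable genes and 0.68% over the abundant genes. Log2 P4 held 2.32% and 2.60%, and block held 2.11% and 2.94%, in the same order. For single stable genes the share reached 7.50% with outcome, 26.1% with P4 and 26.0% with block. Among the 2220 abundant genes it reached 19.2%, 36.8% and 40.2%.

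The 100 genes were last used to scale the whole table in place of TMM. They were chosen to be steady under total counts, so scaling by them stays near scaling by library totals. The comparison with TMM is thus not one with an independent set of reference genes, and it cannot show which scaling is better. Scaling by total counts alone was not run in these fits. The outcome comparison then called 0 genes, as with TMM (435 at an unadjusted p under 0.05, against 455). The P4 comparison called 58 genes, 32 with a positive and 26 with a negative slope, against 78 with TMM, 49 and 29. The block comparison called 137 genes, 129 higher and 8 lower in block 2, against 63 with TMM, 53 and 10. Scaling factors from the stable genes differed from the TMM factors by up to 1.21 times, in pregnant replicate 3.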

How the data were processed

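Raw counts of reads per Ensembl bovine gene (27570 identifiers) were deposited by the authors as a file for each library, per the file headers. Per the submitters' processing notes, FastQC 0.11.7 and Trim Galore 0.4.4 were used, along with HISAT2, HTSeq and build ARS-UCD1.2. How strand was handled in counting is not given in the sources used here, so overlapping or near-identical genes may share reads.

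CPM was computed from the deposited counts and each library's total. edgeR 4.0.16 (R 4.3.3; filterByExpr with minimum count 10, TMM, robust quasi-likelihood F-test, Benjamini-Hochberg) was fitted to all genes and tested on simulated data, with DESeq2 1.42.0 and limma 3.58.1 voom as alternatives. SE was the size of the log2 change over the root of F. Counting variance came from the delta method. The tests set a change against the variation left between libraries. With 1 library per cow, variation between cows cannot be told apart from that of brushing or sequencing.

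The 100 genes and the lists were chosen with earlier results of these data known. The 27 prepared gene lists and the promoter features were not used, as 0 identifiers matched a symbol. The naming rule covered the genes of smallest SD, of highest mean CPM, next to the limit of 100 and of smallest p in each comparison, and the steadiest pair; since identifiers carry no names, only some of these are printed. ENSBTAG00000020496, ENSBTAG00000026415, ENSBTAG00000004282 and the block result of ENSBTAG00000000411 were singled out after their values were seen.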

Additional observations from a re-analysis of the deposited data

How the results depend on the processing

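Of the 100 stable genes, 49 were chosen again with TMM scaling, 48 with DESeq2 size factors, 54 with a floor of 50 CPM, 27 with a floor of 200 CPM (which 27 of the 100 pass), 57 by the median absolute deviation, 63 in block 1 alone, 63 in block 2 alone and 66 in nonpregnant cows alone. The other settings kept 76 to 98, and leaving out 1 library kept 89 to 98. The outcome comparison and both interactions called none of the 100 genes in any setting run. The P4 comparison called none in the settings planned and 0 to 3 without 1 library. The block comparison called 1 with DESeq2, 7 with limma voom and 0 to 1 without 1 library; the cause was not tested. Leaving out libraries in the P4 and block fits was chosen after seeing the data, and was not run for outcome. Over the whole table edgeR called 78 genes for P4, DESeq2 276 and limma voom 0; for block they called 63, 229 and 834. Without the 7 libraries over 8%, edgeR called 7 for P4 and 12 for block. With outcome added it called 14 for P4, and with P4 on the linear scale 26. Without outcome in the model it called 30 for block, and without the low-count filter 181 for P4. P4 ranks gave 124. Leaving out 1 library gave 23 to 488 genes for P4 and 11 to 354 for block. Without the low-count filter the outcome comparison called 5 genes, none of them stable. Scaled by the stable genes, which were chosen under total counts, the block comparison called 137 genes of the whole table, and with TMM factors 63. No paired analysis was possible because there was 1 library per cow, and replicate numbers do no more than name a cow.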
